A study of Mus musculus with 3 samples.

Results

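Voltage-gated sodium channels carry the rising phase of the action potential. Each channel is a large pore-forming alpha subunit joined by small beta subunits with a single membrane span, which set how fast it opens and closes and how it is held at the membrane. The alpha subunits cluster at the axon initial segment through ankyrin-G, and a related pore, NALCN, lets sodium leak into the cell at rest and so sets how close a neuron sits to firing. In the rodent forebrain Scn2a and Scn3a are known as early genes, and Scn1a and Scn8a take over much of the current as neurons mature.

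The members were 9 neuronal sodium channel genes chosen by symbol: the alpha subunit genes Scn1a, Scn2a, Scn3a, Scn8a and Scn9a, the beta subunit genes Scn2b, Scn3b and Scn4b, and Nalcn. All 9 were found among the 18204 protein-coding genes of the deposited table, with 39 of its 84660 transcript rows. Poly-A RNA came from cortical neurons of embryonic day 16 Swiss-Webster mice, an outbred stock, grown in culture in neurobasal medium with B27. The genotype was wild type and the labels give no treatment, so the data comprised 3 libraries of 1 group and no other group to set them against. Values are TPM, a share of reads scaled to transcript length, so levels can be compared between genes. The gene value is the row of the longest protein-coding transcript. Separate cultures are not mentioned in the labels. Each SD therefore reflects library-to-library spread alone, and this spread may be technical. Each p rests on the same 3 libraries and does not measure that spread.

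In libraries 1, 2 and 3 a transcript 8 kb long needed 410, 346 and 365 reads to reach 1 TPM. The cells carried the defining genes of cortical neurons: all 8 pan-neuronal markers stood at 10 TPM or more, with a summed level of 2385 ± 130.1 TPM (SD, n = 3). Astrocyte markers summed to 296 ± 22.9 TPM, with 6 of 7 at 1 TPM or more, and oligodendrocyte precursor markers to 65.4 ± 17.2 TPM, with 5 of 5. Microglial markers summed to 1.28 ± 0.416 TPM, with 1 of 5 at 1 TPM or more. That gene was Aif1, at 1.03 ± 0.425 TPM, while Tmem119 was at 0 in all libraries. None of the 6 muscle markers reached 1 TPM. In bulk RNA, fewer cells that express a gene and less RNA per cell cannot be told apart.

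Of the 9 members, 7 had a mean of at least 1 TPM, the level called detected here, against 61.5% of all protein-coding genes. At 10 TPM or more stood 5 of 9, against 26.4% of all protein-coding genes. The median member was at 3.60 ± 0.17 on the log2(TPM + 1) scale (SD of the 3 library medians), and the median protein-coding gene at 1.94 ± 0.0046. The order by mean was Scn3b, Scn2a, Scn2b, Nalcn, Scn8a, Scn3a, Scn1a, Scn9a and Scn4b. Neighbours in this order whose ranges overlapped across libraries were Scn2b with Nalcn, Scn3a with Scn1a, and Scn9a with Scn4b. Ranges across libraries thus do not separate those neighbours, although Scn2b exceeded Nalcn and Scn3a exceeded Scn1a inside each of the 3 libraries. On the log2(TPM + 1) scale these within-library differences were 0.31 ± 0.14 and 0.19 ± 0.07. Scn9a exceeded Scn4b in 2 of 3 libraries.

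**Figure D1:**
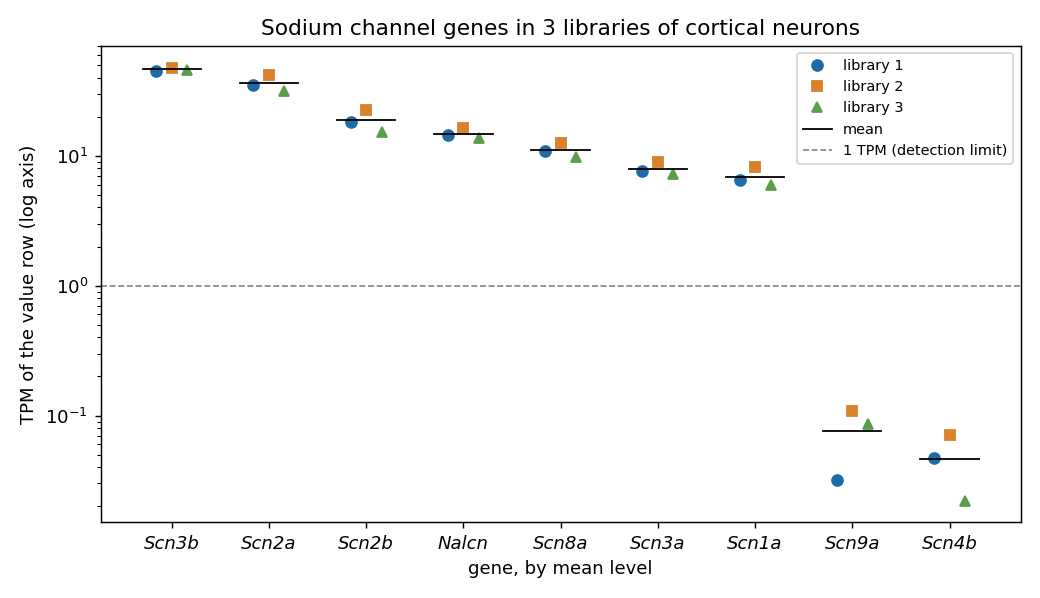
TPM of each sodium channel gene (log axis) in the 3 libraries, with the mean as a bar and 1 TPM as a dashed line. Scn3b and Scn2a lead at 46.3 and 36.2 TPM, while Scn9a and Scn4b lie below 0.2 TPM in each library.

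The pore-forming alpha subunits were led by Scn2a, which encodes NaV1.2, the channel that fills the initial segment of young cortical axons. Scn2a stood at 35.1, 42.2 and 31.3 TPM in libraries 1, 2 and 3, a mean of 36.2 ± 5.50 TPM. No other alpha subunit came near it in any library. Scn8a, which encodes NaV1.6 of mature initial segments and nodes of Ranvier, stood at 10.9, 12.6 and 9.75 TPM (mean 11.1 ± 1.46). Scn3a, which encodes the embryonic NaV1.3, stood at 7.69, 8.96 and 7.20 TPM (mean 7.95 ± 0.909). Scn1a, which encodes NaV1.1, the main channel of fast-spiking inhibitory neurons, stood at 6.48, 8.20 and 5.91 TPM (mean 6.86 ± 1.20). Both late genes were thus present beside both early ones, with Scn8a above Scn3a and Scn1a closest to Scn3a.

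Scn9a, which encodes NaV1.7 and is best known from peripheral sensory neurons, stood at 0.0317, 0.108 and 0.0868 TPM, below the detection level in each library. These values rest on 16, 46 and 39 reads. The antisense gene Gm13629 overlaps it and stood at 0.615 ± 0.135 TPM on its higher row, and whether counting used strand is not known, so the level of Scn9a is uncertain. The peripheral sensory markers summed to 7.21 ± 0.771 TPM, with Prph the highest at 2.60 ± 0.0890 TPM. Of the 6 measured genes 3 were at 1 TPM or more, against 61.5% of all protein-coding genes. Any link to the level of Scn9a was not tested.

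The alpha subunits are close copies of one another, which matters for how their reads can be assigned. Over whole transcripts most of the sequence told the genes apart. The share of 50-base words found in no other annotated mouse gene was 92.2% for Scn2a, 91.5% for Scn3a, 94.5% for Scn1a, 94.5% for Scn9a and 100% for Scn8a. Of the words of Scn3a, 529 also occur in Scn2a, and of those of Scn2a, 298 occur in Scn1a. Scn9a is less certain, because it shares 525 of its 9791 words with the other sodium channel genes, which hold far more reads, and the treatment of shared reads is not given in the sources used here. Their part in its level was not tested.

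Taken as a mixture, the 5 alpha subunit genes summed to 60.1, 72.1 and 54.3 TPM in libraries 1, 2 and 3. Scn2a made up 58.3%, 58.5% and 57.7% of that sum, a mean of 58.2% ± 0.399 (SD, n = 3). Scn8a followed with 17.9% ± 0.280, Scn3a with 12.8% ± 0.419, Scn1a with 11.0% ± 0.324 and Scn9a with 0.121% ± 0.0592. The sum had an SD of 9.07 TPM on a mean of 62.2 TPM. The shares of the 4 detected genes had SDs of at most 0.419 percentage points on means of 11.0% or more, whereas the Scn9a share, on few reads, varied widely for its size, at 0.0528%, 0.150% and 0.160%.

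**Figure D2:**
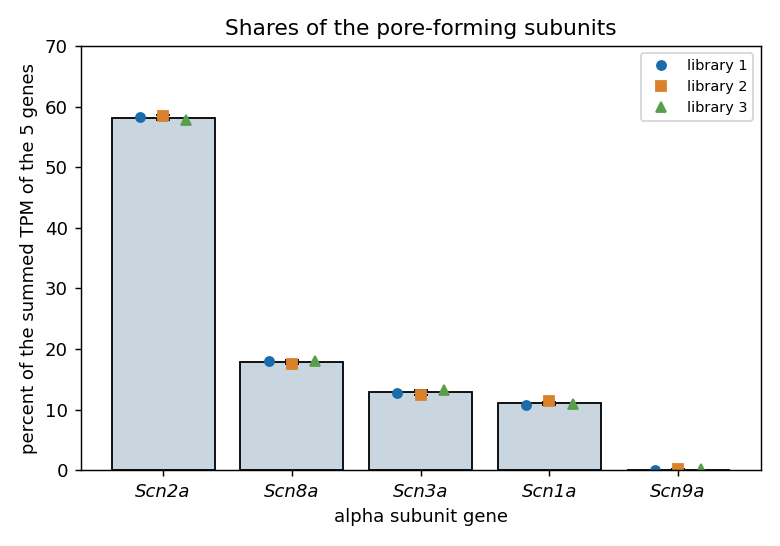
Share of each alpha subunit gene in the summed TPM of the 5 genes, in percent; bars are means of 3 libraries, error bars SD, and symbols the libraries. Scn2a holds 58.2% and the other 4 genes share the rest, with SDs of at most 0.419 percentage points.

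Differences between members were taken inside each library on the log2(TPM + 1) scale, for 8 pairs, of which 7 are given, and each was tested two-sided by an exact permutation that flips the sign of each library's difference. With 3 libraries that test cannot give a p below 0.25. Scn2a exceeded Scn8a by 1.62 ± 0.04 (3.26 times by the ratio of means), Scn1a by 2.24 ± 0.02 (5.27 times) and Scn3a by 2.05 ± 0.07 (4.55 times), in 3 of 3 libraries each. Scn8a exceeded Scn1a by 0.62 ± 0.05 in 3 of 3 libraries. Scn3a exceeded Scn1a by 0.19 ± 0.07, also in 3 of 3 libraries. For each of these, as for the pairs of beta subunits below, the exact permutation test gave p = 0.25 and 0.25 after Benjamini-Hochberg adjustment over the 8 pairs, so none could pass a threshold of 0.05.

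Beta subunits are of a pair of kinds, those that bind the pore through a disulfide bond (Scn2b and Scn4b) and those that bind it without one, Scn3b among them. Scn3b, of the second kind and known for high levels in the developing brain, was the highest member at 45.2, 47.7 and 45.8 TPM (mean 46.3 ± 1.32). It was also the steadiest, with a coefficient of variation of 2.85% against 13.2% for the median detected member and 7.89% for the median detected protein-coding gene. Scn2b, which helps bring channels to the cell surface, stood at 18.2, 22.6 and 15.3 TPM (mean 18.7 ± 3.68) and was the most variable of the detected members, at 19.7%.

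Scn4b, whose tail blocks open channels and gives the resurgent current of fast-firing neurons, stood at 0.0474, 0.0702 and 0.0222 TPM, on 12, 15 and 5 reads. It thus had the lowest mean, with a range that overlapped that of Scn9a, while the other disulfide-linked subunit was among the top 3 members. Scn2b exceeded Scn4b by 4.22 ± 0.23 on the log2(TPM + 1) scale, a scale that understates the difference from so low a gene, and by 402 times as the ratio of mean TPM. Scn3b exceeded Scn2b by 1.28 ± 0.24. Both differences had the same sign in 3 of 3 libraries.

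The 2 disulfide-linked genes are neighbours on chromosome 9, on the same strand and only 8.37 kb apart (Scn2b from 45117876 to 45130070, Scn4b from 45138437 to 45154152, mm10). Their promoter windows are shown because these adjacent genes have such different levels. Each line runs 5′ to 3′ from 250 bases before to 50 bases after the start in RefSeq (GRCm38.p6), with every CG dinucleotide in capitals. The RefSeq start of Scn2b is the gene start given above, but that of Scn4b, at 45138624, lies 187 bases downstream of it, so most of the Scn4b window lies inside the gene as given above. Scn2b lies at chr9:45117626-45117925 and Scn4b at chr9:45138374-45138673, both on the plus strand.
Scn2b: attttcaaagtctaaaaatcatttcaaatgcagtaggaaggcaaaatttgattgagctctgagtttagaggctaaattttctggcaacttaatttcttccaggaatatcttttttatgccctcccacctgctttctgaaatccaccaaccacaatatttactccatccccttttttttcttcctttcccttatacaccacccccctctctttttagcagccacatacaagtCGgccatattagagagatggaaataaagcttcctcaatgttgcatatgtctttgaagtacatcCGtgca
Scn4b: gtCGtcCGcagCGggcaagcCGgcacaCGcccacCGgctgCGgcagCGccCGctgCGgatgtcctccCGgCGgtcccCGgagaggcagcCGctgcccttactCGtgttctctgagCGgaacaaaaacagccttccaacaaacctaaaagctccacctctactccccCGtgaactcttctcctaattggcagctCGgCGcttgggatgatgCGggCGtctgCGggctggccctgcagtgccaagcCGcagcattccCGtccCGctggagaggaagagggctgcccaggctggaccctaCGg

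The dinucleotide CG, which reads the same on both strands, occurred 2 times in the Scn2b window and 26 times in the Scn4b window. Of all 32851 promoter windows, 85.9% held at least as many as Scn2b and 16.9% at least as many as Scn4b. The window of the gene at 0.0466 TPM thus held more CG than that of the gene at 18.7 TPM, though the windows are not the same stretch relative to the gene starts given above. Windows were matched for 7 of the 9 members. Scn8a, with 2 windows, held 38 and 12, Scn2a, also with 2, held 3 and 9, Scn9a held 9, Scn1a 5 and Nalcn 3. The window of Scn9a, at 0.0755 TPM, thus held as many as the richer window of Scn2a, at 36.2 TPM.

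Nalcn, the sodium leak channel, is the longest member gene, with 44 exons over 351 kb of chromosome 14 (123276641 to 123627144, minus strand). It stood at 14.4, 16.4 and 13.6 TPM (mean 14.8 ± 1.41), above every alpha subunit gene except Scn2a. The channel works only with its partners UNC79, UNC80 and FAM155A. All 3 measured genes of that list of 4 were detected, against 61.5% of all protein-coding genes. Their median was 2.98 on the log2(TPM + 1) scale, with Fam155a at 16.9 ± 1.50 TPM, Unc80 at 6.89 ± 1.08 TPM and Unc79 at 4.44 ± 0.217 TPM. In RNA, the gene of the partner that carries the extracellular cap, Fam155a, was thus near Nalcn in level. The genes of the 2 large scaffold proteins were below Nalcn.

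The alpha subunit members other than Scn8a, namely Scn3a, Scn2a, Scn1a and Scn9a, lie with Scn7a, a sodium sensor of glia, in a single cluster of 1328 kb on chromosome 2. From one end the order is Scn3a (65457118 to 65567627, minus strand), Scn2a (65620857 to 65767447, plus strand), Scn1a (66270781 to 66440840, minus strand), Scn9a (66480080 to 66634962, minus strand) and Scn7a. Between Scn2a and Scn1a sit 3 other protein-coding genes. Of these, Csrnp3, a nuclear factor gene beside Scn2a, stood at 13.4 ± 1.73 TPM, Ttc21b, of the cilium, at 2.61 ± 0.113 TPM and Galnt3, a glycosyltransferase gene, at 0.731 ± 0.171 TPM (1.35 TPM on its highest row).

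Levels changed sharply between neighbours in the cluster. Scn1a and Scn9a, on the same strand and 39.2 kb apart, stood at 6.86 and 0.0755 TPM, a ratio of 90.8, and their ranges over libraries did not overlap. The size of that ratio is uncertain, because the level of Scn9a is uncertain and rests on 16, 46 and 39 reads. Scn7a, next to Scn9a, stood at 0.119 ± 0.0208 TPM. Scn3a and Scn2a, 53.2 kb apart and transcribed away from each other, were both detected. The last 2 genes of the cluster were therefore both below 0.2 TPM, while the first 2 were above 7 TPM in every library. Outside the cluster Scn8a lies alone on chromosome 15 (100870683 to 101045929, plus strand) and Scn3b on chromosome 9 (40269216 to 40291618, plus strand).

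**Figure D3:**
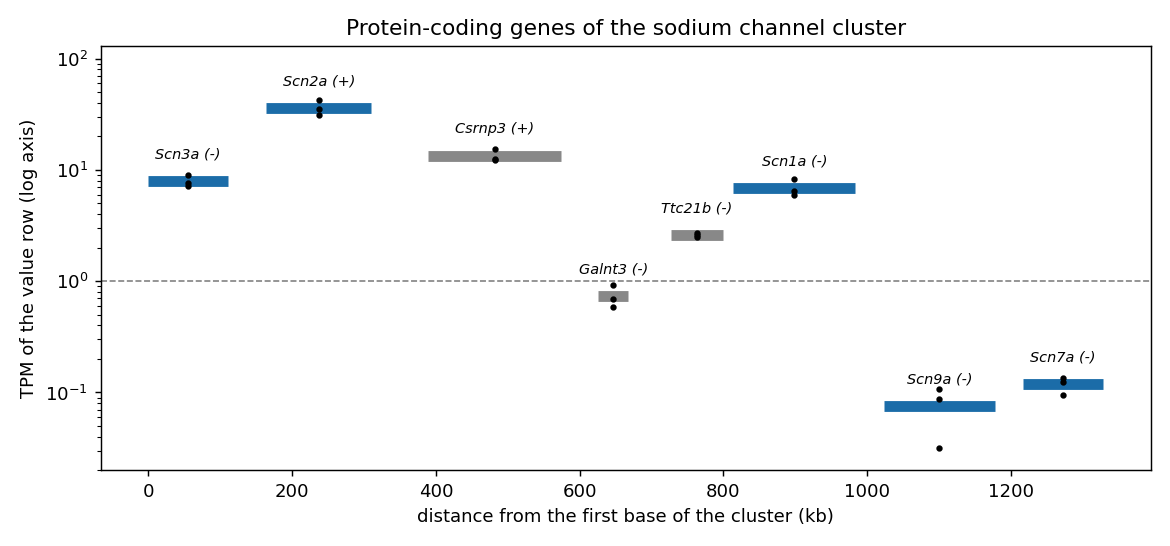
Mean TPM (log axis) of each protein-coding gene of the cluster against distance from its first base in kb; bar length is the gene's span, dots are the 3 libraries, sodium channel genes are blue and others grey, and strands are in parentheses. Levels range from 36.2 TPM for Scn2a to 0.0755 TPM for Scn9a.

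The deposited rows of a gene share reads, and they differ by where along the transcript they lie. For Scn2a, Scn8a, Scn3a and Scn1a the highest row was 1.12, 1.04, 1.16 and 1.15 times the value row, so their levels depend little on that choice. Scn3b was more divided: a row of 672 bases stood at 66.9 ± 3.87 TPM, 1.45 times the value row, and 2 retained intron rows at 27.1 ± 0.165 and 11.5 ± 0.168 TPM. Scn9a reached 0.113 ± 0.0591 TPM on its highest row and stayed below the detection level. Nalcn and Scn4b have 1 row each, and the value row of Scn2b was its highest.

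How far the 3′ end reached also differed between members, as row pairs chosen after their values were seen show. The longer Scn3a row extends 1145 bases past the 3′ end of the next, yet held only 23, 17 and 8 more reads in libraries 1, 2 and 3. Over the 1010 net extra bases this net gain corresponded to 0.336 ± 0.143 TPM, against 8.85 ± 1.01 TPM on the shorter row. Only 98.4% of the shorter row's bases lie in the longer row, and reads on the remainder are subtracted in the net gain. The level of the added stretch itself is therefore not given and may be higher. The value row of Scn3a, at 7.95 TPM, was thus below the shorter row, with more bases but few more reads. Scn1a behaved otherwise. Its longer row, which extends 2100 bases further, held 966, 1085 and 794 more reads. That came to 9.42 ± 1.89 TPM on 2169 extra bases, against 6.18 ± 0.976 TPM on the shorter row. The value row of Scn9a extends 3037 bases past the 3′ end of a row of 6471 bases and held only 0, 0 and 2 reads more than that row.

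Near the 5′ end, Scn1a had a coding row at 3.85 ± 0.836 TPM, 0.560 times its value row, and Scn8a a row of 1072 bases at 2.38 ± 0.156 TPM, 0.215 times its value row, of which 30.8% of bases lie in the value row. Scn2a had a row there at 40.6 ± 4.08 TPM, 1.12 times its value row. Rows annotated as retained introns stood below the value row: 16.9 ± 1.78 TPM for Scn2a and 0.570 ± 0.174 TPM for Scn1a. A noncoding Scn3a row of 3502 bases, annotated as a processed transcript, stood at 2.31 ± 0.249 TPM. Which reads came from unspliced RNA was not tested.

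**Figure D4:**
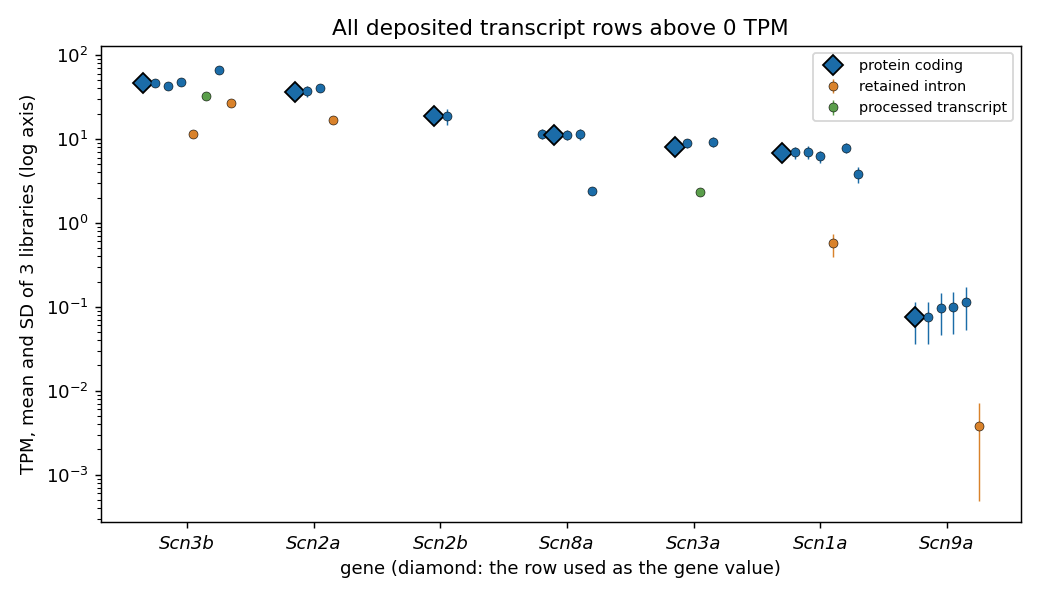
TPM (log axis) of every deposited transcript row above 0, as mean and SD of 3 libraries, for the members with more than 1 row; colour gives the row's type and a diamond the row used as the gene value. Coding rows of Scn2a, Scn8a and Scn1a lie close together apart from short ones near the 5′ end, while the Scn3b rows spread from 11.5 to 66.9 TPM.

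On their value rows most detected members shared an order of libraries, which was noted after their values were seen. There all 7 detected members were highest in library 2, against 40% of the 11201 detected protein-coding genes. Of these members 6 of 7 followed the order library 2, then 1, then 3, against 23.8% of those genes. The exception was Scn3b, whose values in libraries 1 and 3 differed by less than 1 TPM. On its highest row Scn3b stood at 62.9, 67.0 and 70.7 TPM in libraries 1, 2 and 3, and was thus highest in library 3. Markers of GABAergic neurons summed to 281, 293 and 193 TPM in libraries 1, 2 and 3, with 5 of 7 genes highest in library 2. Of the others, Sst, the highest gene of that list, was highest in library 1 and Dlx1 in library 3. Markers of parvalbumin-type interneurons summed to 20.7, 25.9 and 15.2 TPM, with all 5 genes of that list highest in library 2. Oligodendrocyte precursor markers ran the other way, at 65.6, 48.0 and 82.5 TPM. Glutamatergic markers were nearly level at 206, 204 and 203 TPM, pan-neuronal markers stood at 2442, 2477 and 2237 TPM and astrocyte markers at 271, 301 and 316 TPM. Their part in the members' spread was not tested. Pvalb itself, which marks the fast-spiking cells that rely on Scn1a in mature cortex, was at 0.260 ± 0.150 TPM.

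Of the 6 sodium channel genes that were listed beside the members 1 was detected, against 61.5% of all protein-coding genes. The list median was 0.11 on the log2(TPM + 1) scale. Scn11a of sensory neurons stood at 0.0405 ± 0.00418 TPM and Scn4a of skeletal muscle at 0.00413 ± 0.00447 TPM.

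At the axon initial segment, where these channels gather, all 9 listed genes were detected, against 61.5% of all protein-coding genes. The list median was 4.45 on the log2(TPM + 1) scale, against 1.94 for all protein-coding genes. Ank3, which encodes ankyrin-G, the scaffold that binds the alpha subunits, stood at 11.5 ± 1.58 TPM on its longest coding row and at 24.6 TPM on its highest. Sptan1, a spectrin gene, was the highest of the list at 135 ± 10.2 TPM, followed by the adhesion gene Nrcam at 57.9 ± 4.08 TPM, Ank2 at 46.4 ± 5.27 TPM (120 TPM on its highest row) and the potassium channel gene Kcnq3 at 24.5 ± 4.54 TPM. The proteins of the FGF homologous factor genes bind the tail of the alpha subunits and slow their inactivation. All 4 of these genes were detected, against the same 61.5%, and their median was 4.10. Fgf12 stood at 67.3 ± 9.38 TPM and Fgf13 at 44.8 ± 2.95 TPM, both above the highest alpha subunit gene, while Fgf14 stood at 5.43 ± 0.811 and Fgf11 at 4.34 ± 0.138 TPM.

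All 11 listed channel regulators were detected, against 61.5% of all protein-coding genes, and their median was 5.14. Calmodulin sits on the tail of the alpha subunits, and of its genes Calm2 stood at 837 ± 47.5 TPM and Calm3 at 449 ± 23.5 TPM. Nedd4, a ubiquitin ligase that removes channels from the membrane, stood at 89.6 ± 5.88 TPM. Of 8 regulators of transcription and splicing 7 were detected, against the same 61.5%, and the list median was 3.76. The splicing factor genes led the list on value rows, with Rbfox2 at 38.7 ± 3.30 and Rbfox1 at 31.0 ± 2.47 TPM, which steer the splicing of channel exons. Then came Mbnl2 at 25.5 ± 3.83 and Rbfox3 at 22.6 ± 0.0276 TPM. Their order depends on the row: on highest rows Rbfox3 stood first at 45.25 TPM, above Rbfox2 at 38.7 and Rbfox1 at 32.5 TPM. The one below the detection level was Rest, the repressor that keeps Scn2a and other neuronal genes off outside neurons, at 0.732 ± 0.0385 TPM. That call depends on the level chosen: at 0.5 TPM, or with the total set over nuclear protein-coding genes, 8 of 8 were detected.

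**Figure D5:**
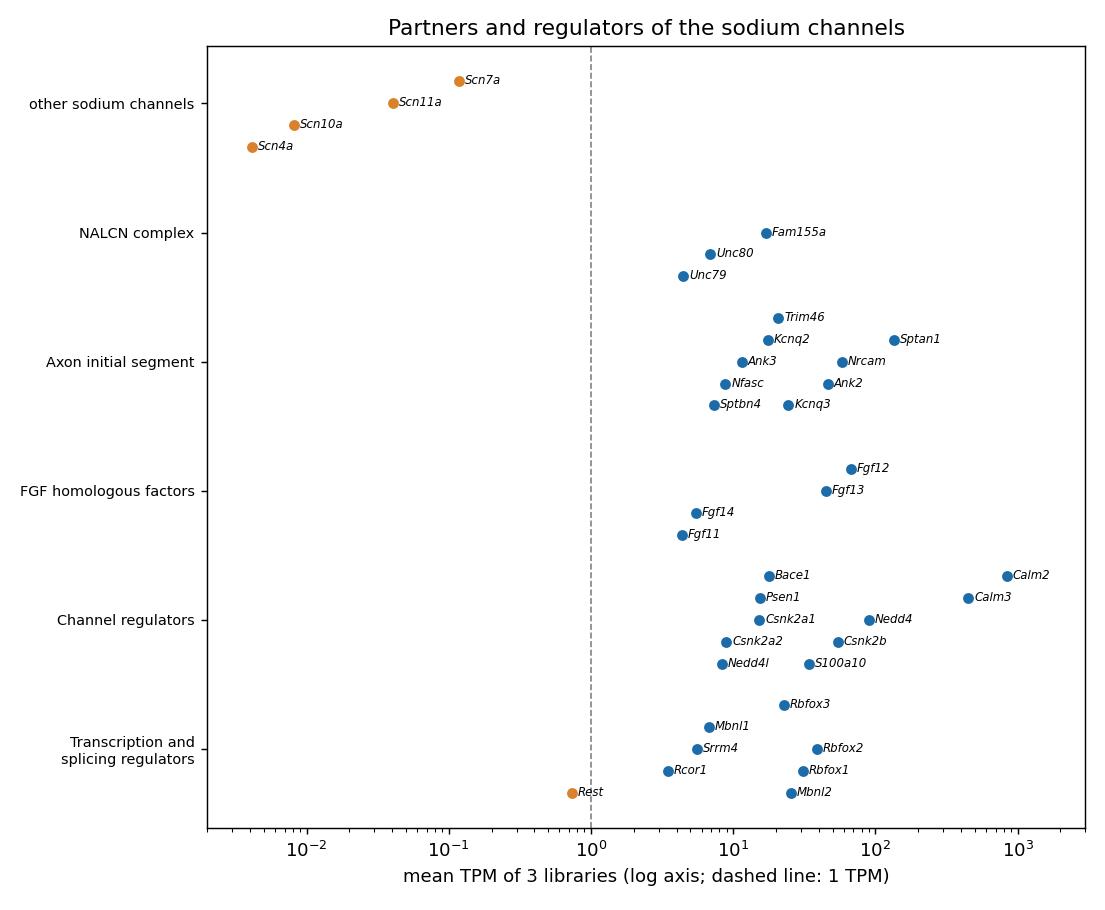
Mean TPM (log axis) of 3 libraries for the reported genes among those listed as partners, relatives or regulators of the sodium channels, in rows by list; blue points are at 1 TPM or more (dashed line) and orange points below it. The other sodium channel genes plotted are orange, while all 9 genes of the axon initial segment list are blue.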

How the data were processed

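The authors deposited TPM for each transcript row and library, by the table's name and totals, and each library sums to the same total over rows that share reads. Trimmomatic, TopHat, Bowtie, HTSeq and mm10 are named per the submitters' processing notes, without role or order. GENCODE M4 is the annotation named with the table. Libraries came from a stranded poly-A kit, per the labels' protocols, but the strand setting of the counting is not given in the sources used here.

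Rows were matched without version to GENCODE M21 on the same build: 83017 matched, 47 of these lay elsewhere and were dropped, and 1643 did not match. The gene value is the longest protein-coding row whose ends lie within 100 bases of M21, and the highest row is a check. Rows were never summed. For 74454 rows with the same ends, dividing TPM times length by a constant of the library left whole numbers (tolerance 0.01) in 99.8%. Rows without reads count as whole in that share. The whole numbers are taken as reads per row, used for depth and 3′ ends. For member rows with other ends, the length that made reads whole was used where such a length was found. None was found for Scn1a-206, Scn2a-204 and Scn8a-203, which were given no read numbers.

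Analyses used Python 3.11.15 with pandas 2.3.3 and numpy 2.4.6. Log values are log2(TPM + 1). Calculations were tested on simulated data. Named genes are the members, up to 4 of the highest and 3 undetected genes of each list, and genes of the cluster. Ank3, Nedd4l and the row pairs at 3′ ends were chosen after their values were seen. Fam155b and 1 listed sensory marker were not analysed here, and some other listed genes and 1 pair are not reported here. Members, pairs and lists were chosen with earlier results of these data known. Alternatives were the highest row, leaving out each library, the median in place of the mean, a total set over nuclear protein-coding genes, detection at 0.5 and 5 TPM, a pseudocount of 0.1, a filter at 1 TPM and 2 further rules for the longest row.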

Additional observations from a re-analysis of the deposited data

How the results depend on the processing

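All 8 member differences kept their sign under every alternative run, and 7 of 9 members stayed detected, also at 0.5 and 5 TPM and when the total was set over nuclear protein-coding genes. On the highest row the shares of the alpha subunit genes were 58.6% for Scn2a, 16.5% for Scn8a, 13.3% for Scn3a and 11.4% for Scn1a, each moved by more than the spread between libraries but in the same order. With the longest row whatever its ends, a rule added after seeing the data, Scn8a held 18.3%. The median member stood at 5.74 on the log2 scale with the total set over nuclear protein-coding genes, which moved the median of all protein-coding genes to 3.85. It stood at 3.98 among members of at least 1 TPM, against 3.19 for all genes so filtered. Without any single library the Scn2a share lay between 58.0% and 58.4% and the member median between 3.50 and 3.67. At 5 TPM the lists had 2 NALCN partners, 3 FGF homologous factors and 6 regulators of transcription and splicing detected, and this last list had 8 at 0.5 TPM and with the total set over nuclear genes. No paired analysis was possible because all libraries belong to 1 group, so no groups share replicate numbers, while differences between genes were taken within libraries. Levels depend on the deposited scale: Scn3b stood at 219 and Scn4b at 0.220 TPM with the total set over nuclear genes. Depth limits Scn9a and Scn4b, with 101 and 32 reads over all libraries.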

Other observations

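Some transcripts overlap the span of a member on the other strand, and whether their exons overlap was not examined. Gm13629, an antisense gene that reaches into Scn9a, stood at 0.615 ± 0.135 TPM on its higher row (SD, n = 3), above the 0.0755 TPM of Scn9a itself, and 132 of the 50-base words of Scn9a and 116 of those of Scn3a also occur in it. Gm13630, opposite Scn1a, stood at 0.360 ± 0.0254 TPM. Gm10684, a lincRNA opposite Scn2b, was listed at 0 in all 3 libraries. A deposited row on the strand of Scn3b that matched no transcript of the annotation used here stood at 30.1 ± 1.52 TPM and was given no gene.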
